A study of Mus musculus with 10 samples.

Results

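Rps4y2, its parent gene Rps4x and Tmtc1, the gene that surrounds Rps4y2 on the opposite strand, are 3 of the 13578 genes in a table of expression in the gonadal soma of female mouse embryos. Rps4y2 was chosen by its expression difference between embryos with and without vitamin C, and the other 2 genes because their reads could be counted as reads of Rps4y2. The group difference of Rps4y2 is therefore given as a description only. All embryos were Gulo-/- on a C57BL/6 background, lacking the enzyme that completes vitamin C synthesis, and were taken at embryonic day 13.5. The colony relies on its diet for vitamin C, which was supplied at physiological levels for 5 of the embryos and withdrawn over the early weeks of pregnancy for the other 5. RNA came from Oct4-negative cells sorted from the gonads of single embryos, so that each value stands for 1 animal. Embryos 2 and 3 of each group share the leading number of their titles, and the labels do not say whether they are litter mates. P-values therefore measure the spread between these embryos only.

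RPS4 is a protein of the small ribosomal subunit, which reads the messenger RNA during translation, and Rps4x is its gene on the X chromosome. Ribosomal protein genes have left many intron-free copies in mammalian genomes, made by reverse transcription of their messenger RNA, and most of these copies have lost their reading frame. Despite its symbol, Rps4y2 is not a Y-linked gene in the mouse: the reference annotation (GENCODE M21 and RefSeq, build GRCm38) calls it Rps4l and lists it as a transcribed processed pseudogene on chromosome 6. TMTC1 is a protein of the endoplasmic reticulum membrane, one of a family that adds mannose to cadherins, the adhesion proteins between cells.

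The copy was far enough from its parent that its sequence can be told from that of Rps4x over most of its length. In GENCODE M21 transcripts, the reading frame of Rps4y2 ran for 262 codons without a stop, against 263 codons in Rps4x. Over 789 aligned bases, 632 were identical (80.1%) and 157 differed, with a gap of 3 bases. Of the differing bases, 127 (80.9%) stood at the third position of a codon, 23 (14.6%) at the first and 7 (4.5%) at the second. The opening 150 bases of both coding sequences are shown because they hold the longest shared run, with differing bases in capitals.
Rps4x: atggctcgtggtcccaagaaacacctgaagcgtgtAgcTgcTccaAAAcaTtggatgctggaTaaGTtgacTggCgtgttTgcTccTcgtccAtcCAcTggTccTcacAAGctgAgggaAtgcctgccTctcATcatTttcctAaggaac
Rps4y2: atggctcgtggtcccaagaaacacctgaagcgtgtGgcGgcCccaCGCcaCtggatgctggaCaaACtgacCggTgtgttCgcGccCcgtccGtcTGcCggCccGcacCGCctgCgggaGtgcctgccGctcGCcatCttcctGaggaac
That run of 38 identical bases begins 3 bases before the start codon, and 31 of the 150 bases shown differ. Bases 478 to 627 are shown because no other stretch of 150 bases in frame had more differences, 41 in all.
Rps4x: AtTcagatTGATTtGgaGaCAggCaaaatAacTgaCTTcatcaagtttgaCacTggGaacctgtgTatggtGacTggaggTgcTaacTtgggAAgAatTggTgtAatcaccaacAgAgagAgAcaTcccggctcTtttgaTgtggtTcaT
Rps4y2: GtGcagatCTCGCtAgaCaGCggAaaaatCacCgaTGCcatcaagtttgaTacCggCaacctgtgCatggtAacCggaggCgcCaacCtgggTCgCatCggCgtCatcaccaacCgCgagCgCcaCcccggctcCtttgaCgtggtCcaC

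**Figure D1:**
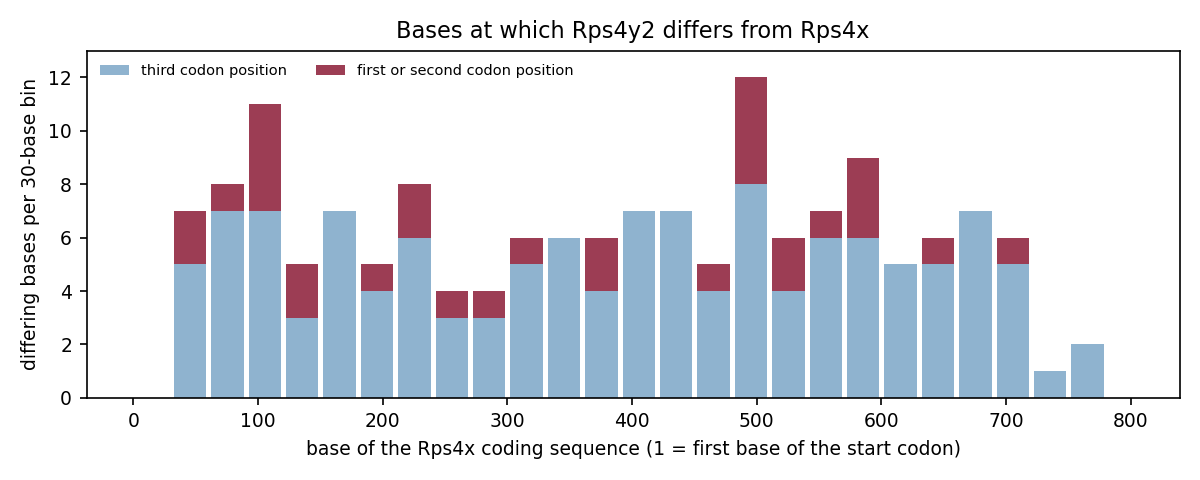
Bases at which the reading frame of Rps4y2 differs from the Rps4x coding sequence, counted in bins of 30 bases (y axis) along the Rps4x coding sequence (x axis, base 1 is the first base of the start codon), split by codon position. The first bin has 0 differences, the fullest has 12, and most differences in the plot are at the third position of a codon.

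A read shorter than that shared run could fit both genes, and a longer one could not fit both exactly. Of 919 windows of 25 bases in the Rps4y2 transcript, 16 (1.7%) occurred exactly in Rps4x and 93 (10.1%) came within 2 mismatches. Of 908 windows of 36 bases, 3 (0.3%) occurred there exactly and 37 (4.1%) came within 2 mismatches. At 50 bases, 0 of 894 windows occurred in Rps4x exactly and 7 (0.8%) came within 2 mismatches. At 75 bases the count was 0 of 869 for both. The labels give no read length for these libraries. A closer relative lies elsewhere: Rps4l-ps, a pseudogene on chromosome 7, matched the Rps4y2 frame at 736 of 768 aligned bases (95.8%). It accounted for all of the 133 windows of 50 bases (14.9%) that occurred in another annotated gene, and for 58 windows of 75 bases (6.7%). At 25 and 36 bases, 292 (31.8%) and 202 windows (22.2%) occurred exactly in another annotated gene, Rps4x among them. Rps4l-ps has no row of its own among the 13578 genes.

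Tmtc1 and Rps4y2 share a place in the genome but no exon. Rps4y2 lies on the plus strand inside an intron of Tmtc1, which is read from the minus strand, and the nearest Tmtc1 exons are 18.3 kb and 55.4 kb away in GRCm38. At every window length from 25 to 100 bases, 0 windows of Rps4y2 occurred in a spliced Tmtc1 transcript, on either strand, also with 2 mismatches allowed. Reads from unspliced Tmtc1 RNA would cross the Rps4y2 locus on the other strand. The labels do not say whether reads were counted by strand, so such reads cannot be told apart from those of Rps4y2. These locations are in another build than the authors' mm9, so no coordinates are given.

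Rps4y2 was lower in all 5 embryos without vitamin C than in any of the 5 with it. On the authors' regularised log2 scale (rlog), supplied embryos 1 to 5 stood at 10.06, 10.02, 10.14, 9.93 and 9.72. Withdrawn embryos 1 to 5 stood at 9.60, 9.62, 9.54, 9.48 and 9.61. The supplied embryos were spread widely, embryo 5 being the lowest of them and 0.10 above the highest withdrawn embryo, whereas the withdrawn embryos lay close together. The means were 9.97 ± 0.160 and 9.57 ± 0.0588 (SD, n = 5 each), a difference of -0.41 (SE 0.0644), or 0.755-fold on the rlog scale, which understates changes of weakly expressed genes. This is the value that chose the gene. By limma, 3 of 13578 genes (0.0221%) had an adjusted p under 0.05, among them Rps4y2 (adjusted p = 0.0394). Because the gene was chosen by this same contrast, its p is given as a description and is no test of it. That adjusted p exceeded 0.05 when any single embryo other than supplied embryo 5 was left out (0.0510 to 0.163) and, among other settings, with embryos of a shared title number averaged (0.154). The gene just inside that limit was Rps4y2 itself, and the one just outside was Ccdc36, at -0.16 (adjusted p = 0.0638). Groups did not overlap, with withdrawn embryos lower, in 0.464% of all genes, and with withdrawn embryos higher in 0.346%.

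Rps4x was slightly higher on average in the withdrawn embryos, within the spread between embryos. Supplied embryos 1 to 5 stood at 13.57, 13.55, 13.59, 13.42 and 13.42, and withdrawn embryos at 13.75, 13.62, 13.47, 13.55 and 13.59. The groups overlapped, with withdrawn embryo 1 above all others and withdrawn embryo 3 among the lower supplied ones. The means were 13.51 ± 0.0829 and 13.60 ± 0.102 (SD, n = 5 each), and the difference of 0.086 (SE 0.0565, limma adjusted p = 0.963) had a 95% interval from -0.033 to 0.21. Without withdrawn embryo 1 the Rps4x difference was 0.047.

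Tmtc1 was somewhat higher in the withdrawn embryos, short of the threshold over all genes. Supplied embryos 1 to 5 stood at 8.98, 9.03, 9.13, 9.22 and 9.09, and withdrawn embryos at 9.16, 9.36, 9.29, 9.33 and 9.17. The groups overlapped through supplied embryo 4, which stood above withdrawn embryos 1 and 5. The means were 9.09 ± 0.0937 and 9.26 ± 0.0937 (SD, n = 5 each), a difference of 0.17 (SE 0.0556, 95% interval 0.054 to 0.29). The limma p was 0.00671 before adjustment and 0.900 after it, where 5.3% of all genes, 2.45% of them on the higher side, had an unadjusted p under 0.05.

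**Figure D2:**
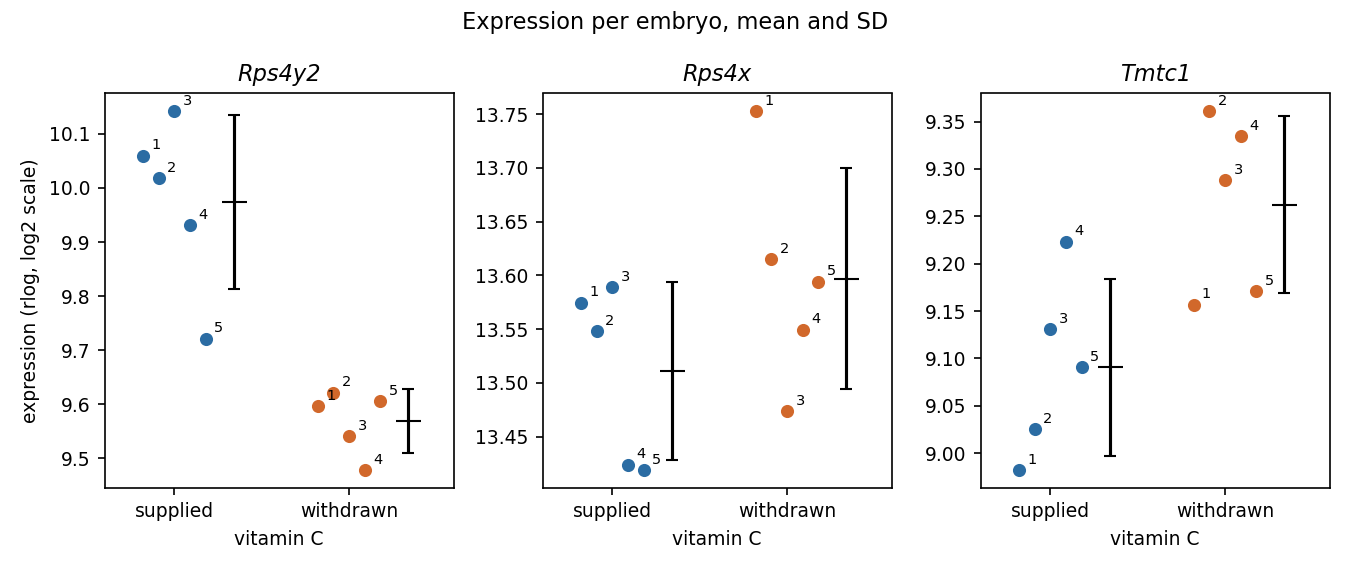
Expression (rlog, log2 scale, y axis; each panel has its own range) of Rps4y2, Rps4x and Tmtc1 in each embryo, by vitamin C group (x axis); points carry the embryo number and bars show mean and SD of 5 embryos. Withdrawn embryos lie below all supplied ones in Rps4y2, at 9.48 to 9.62 against 9.72 to 10.14, and overlap with them in the other 2 genes.

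Set against either gene within the same embryo, the Rps4y2 difference is the one that chose the gene less that of the other gene, and is given as a description. Rps4y2 minus Rps4x averaged -3.54 ± 0.0953 in supplied and -4.03 ± 0.0867 in withdrawn embryos (SD, n = 5 each), a difference of -0.49. It ran from -3.70 to -3.45 in supplied and from -4.16 to -3.93 in withdrawn embryos. Rps4y2 minus Tmtc1 averaged 0.88 ± 0.200 and 0.31 ± 0.128, a difference of -0.58. These are differences of rlog values and not ratios of molecules, since the values are not scaled for gene length and levels of different genes are not compared.

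Among embryos of the same group, Rps4y2 and Rps4x tended to be high and low together. After each group mean was subtracted, Pearson's r over the 10 embryos was 0.67 (two-sided exact permutation within groups, p = 0.0155, Benjamini-Hochberg adjusted over 3 pairs 0.0465). Spearman's rho was 0.72 (exact permutation p = 0.0301, adjusted 0.0904), short of the threshold. Both groups had the same sign: supplied embryos 4 and 5 were low and embryos 1, 2 and 3 high in both genes, and withdrawn embryos 3 and 4 were low in both. Without supplied embryos 3 and 5, which lay farthest from the median of Rps4y2, r was 0.66 over 8 embryos and no longer past the threshold (exact permutation p = 0.113, adjusted 0.206). With quantile normalization r was 0.45, and with embryos of a shared title number averaged it was 0.66, both past it no longer (exact permutation, adjusted p = 0.220 and 0.109). The adjusted p also exceeded 0.05 when any single embryo other than withdrawn embryos 1 and 4 was left out, with r between 0.61 and 0.81 over all 10 such fits. The relation is therefore reported as one that rests on the full set of embryos. Nor was an r of this size particular to Rps4x. Of 13577 genes compared with Rps4y2, 234 had an r from 0.65 to 0.70, the range that holds Rps4x. Higher up, 189 had an r from 0.70 to 0.75, 114 from 0.75 to 0.80 and 71 from 0.80 to 0.85. Beyond these, 33 had an r from 0.85 to 0.90, 8 from 0.90 to 0.95 and 2 above 0.95. On the negative side, 269 had an r from -0.70 to -0.65, 204 from -0.75 to -0.70, 149 from -0.80 to -0.75 and 89 from -0.85 to -0.80. Below these, 34 had an r from -0.90 to -0.85, 13 from -0.95 to -0.90 and 3 under -0.95.

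Tmtc1 had no such relation with Rps4y2 that the test could show. The r of their deviations was -0.22 and rho -0.25 over 10 embryos (two-sided exact permutation within groups, p = 0.603 and 0.544, adjusted 0.603 and 0.544), and r was -0.64 without supplied embryos 3 and 5 (exact permutation p = 0.138, adjusted 0.206). Leaving out a single embryo moved r between -0.10 (without supplied embryo 1) and -0.38 (without supplied embryo 5). For Rps4x and Tmtc1, r was -0.55 and rho -0.44 (exact permutation p = 0.122 and 0.234, adjusted 0.183 and 0.351), and r was -0.45 without withdrawn embryos 1 and 3 (exact permutation p = 0.308, adjusted 0.308). With 5 embryos in a group, no coefficient is given inside a single group.

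**Figure D3:**
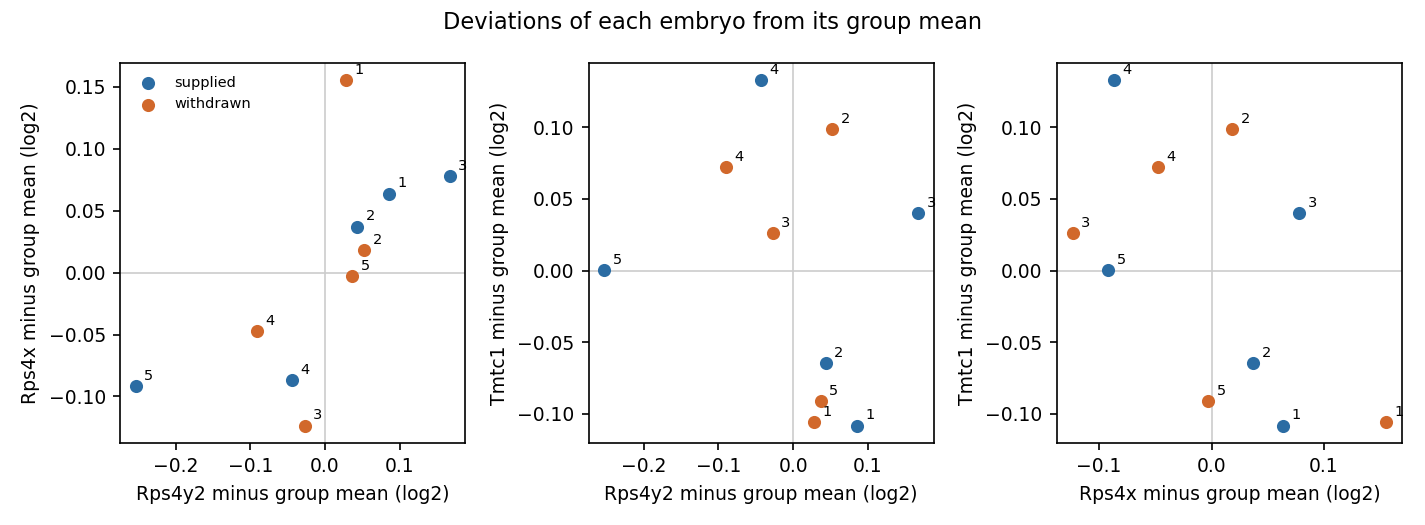
Deviation of each embryo from its group mean (log2) in pairs of genes: Rps4x against Rps4y2, Tmtc1 against Rps4y2 and Tmtc1 against Rps4x; colours mark the vitamin C group and numbers the embryo. Points rise from lower left to upper right in the first panel (r = 0.67) and show weaker, downward scatter in the others (r = -0.22 and -0.55).

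The relation of Rps4y2 with Rps4x was not the strongest among ribosomal protein genes. Of 77 ribosomal protein genes with a row, 73 had an r above 0 with Rps4y2, with a median of 0.55 against -0.0042 over all genes, and 18 of the 76 other than Rps4x had a higher r than Rps4x. Rps4x itself had a median r of 0.82 over the other 76 genes, of which 73 were above 0. Tmtc1 stood opposite to it, at a median of -0.47 with 4 of 77 above 0. These coefficients describe the same 10 embryos, share libraries and scaling, and carry no test.

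**Figure D4:**
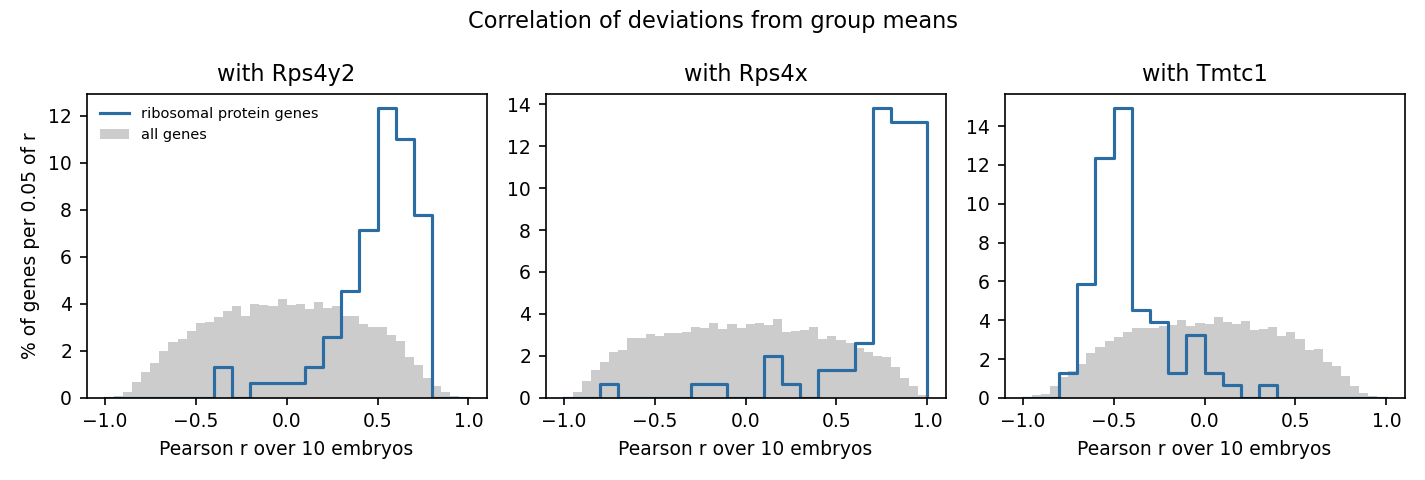
Share of genes (y axis, % per 0.05 of r) by their Pearson r with Rps4y2, Rps4x and Tmtc1 over 10 embryos after subtraction of group means (x axis), for all genes (grey) and for ribosomal protein genes (blue line). The ribosomal protein genes lie to the right of all genes for Rps4y2 (median 0.55) and Rps4x (median 0.82), and to the left for Tmtc1 (median -0.47).

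The 6 genes most like Rps4y2 across embryos held no ribosomal protein gene. They were Cyth3, an exchange factor of ARF GTPases (r = 0.97), the WNT receptor gene Ryk (0.96), the initiation factor gene Eif1b (0.93), the acetylcholine receptor gene Chrna7 (0.92), the actin regulator Coro1a (0.92) and Rraga, a GTPase of nutrient sensing (0.91). The lowest coefficients with Rps4y2 belonged to the integrin gene Itga10 (r = -0.99), Phka2, a subunit of phosphorylase kinase (-0.95), and Miip (-0.95). None of these 9 genes passed limma in the group comparison; among the 6, Chrna7 had the smallest adjusted p (0.900). For Rps4x the first 6 were Ostc, a subunit of the oligosaccharyltransferase (r = 0.98), the elongation factor gene Eef1b2 (0.98), Rpl37 (0.97), Bsg (0.97), Rplp0 (0.97) and Pafah1b3 (0.97), and 14 of the first 50 were ribosomal protein genes. The kinase gene Taok2, the synaptic adhesion gene Nlgn2 and Gm14420 were lowest with Rps4x, each at -0.96. For Tmtc1 they were Mapk7, the kinase ERK5 (r = 0.97), Atad5 (0.94), Dclk2 (0.93), the TGF-beta mediator Smad3 (0.93), the receptor gene Igf1r (0.93) and Hoxb4 (0.93), with Mitd1 (-0.96), Tulp2 (-0.94) and Adat2 (-0.94) at the other end. Of all genes, 10 exceeded 0.9 with Rps4y2, 98 with Rps4x and 13 with Tmtc1; no test stands behind these orders.

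Other ribosomal protein genes were mostly above 0 in withdrawn minus supplied, as Rps4x was, none passed the test, and the direction of both lists rested on withdrawn embryo 1, the embryo highest in Rps4x. Over all genes 50.2% were above 0. Of 32 other small subunit genes, 24 were above 0 and 8 below, with a median of 0.039 against 0.00021 over all genes; limma called 0, and 4 were higher and 0 lower at an unadjusted p under 0.05. Rps29 (0.14), Rps25 (0.12) and Rps28 (0.11) had the smallest p. Of 44 large subunit genes, 35 were above 0, with a median of 0.043; limma called 0, with 5 higher and 1 lower at an unadjusted p under 0.05. Rpl10 (0.15), Rpl31 (0.16) and Rplp2 (0.13) came first there. Over all genes, 2.45% were higher and 2.84% lower at that limit. Withdrawn embryo 1 had a list mean of 12.79 for the small subunit, where the remaining withdrawn embryos had 12.55 to 12.58. For the large subunit its list mean was 13.39, where the remaining 4 had 13.13 to 13.18. Without it the medians were -0.0095, with 15 of 32 small subunit genes above 0, and -0.0041, with 21 of 44 large subunit genes above 0. It stood apart at the high end in Rps29 and Rps28. The other X-linked ribosomal protein genes, which share their chromosome with Rps4x, stood at 0.15 (Rpl10), 0.11 (Rpl39) and 0.099 (Rpl36a). Of the listed paralogs and copies of other ribosomal protein genes, 4 had a row, with 0 called by limma and 0 at an unadjusted p under 0.05: Rpl7l1 (0.058), Rpl22l1 (0.057), Rps27l (0.016) and Rpl36al (-0.0077).

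The relatives and partners of Tmtc1 did not pass the test either. Tmtc2, Tmtc3 and Tmtc4, which encode the other members of the family, differed by 0.011, -0.0084 and -0.071 (limma adjusted p = 0.999, 0.999 and 0.978). Of 17 genes of protein O-mannosylation, 11 were above 0 and 6 below with a median of 0.018; limma called 0, and 0 had an unadjusted p under 0.05. Dpm2, a subunit of the mannose donor synthase, was at -0.073, the mannosyltransferase gene Pomt1 at 0.086 and Ispd at -0.074. Of 14 genes of calcium handling in the endoplasmic reticulum and of calcium entry into the cell, 7 were above 0 and 7 below. Limma called 0 of them, and 0 had an unadjusted p under 0.05. The calcium pump gene Atp2a3 was at -0.087, the calcium entry channel gene Orai2 at 0.060 and the receptor gene Itpr1 at 0.053.

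None of the genes around the Rps4y2 locus passed the test. Of the 19 nearest tested genes on chromosome 6 other than Tmtc1, 8 were above 0 and 11 below, between -0.098 and 0.063, with 0 called by limma and 0 at an unadjusted p under 0.05. The nearest on one side were Ergic2 (-0.054), Ccdc91 (0.019) and Klhdc5 (0.063), and on the other Gm6313 (-0.014), the importin gene Ipo8 (-0.0058) and Caprin2 (0.053).

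**Figure D5:**
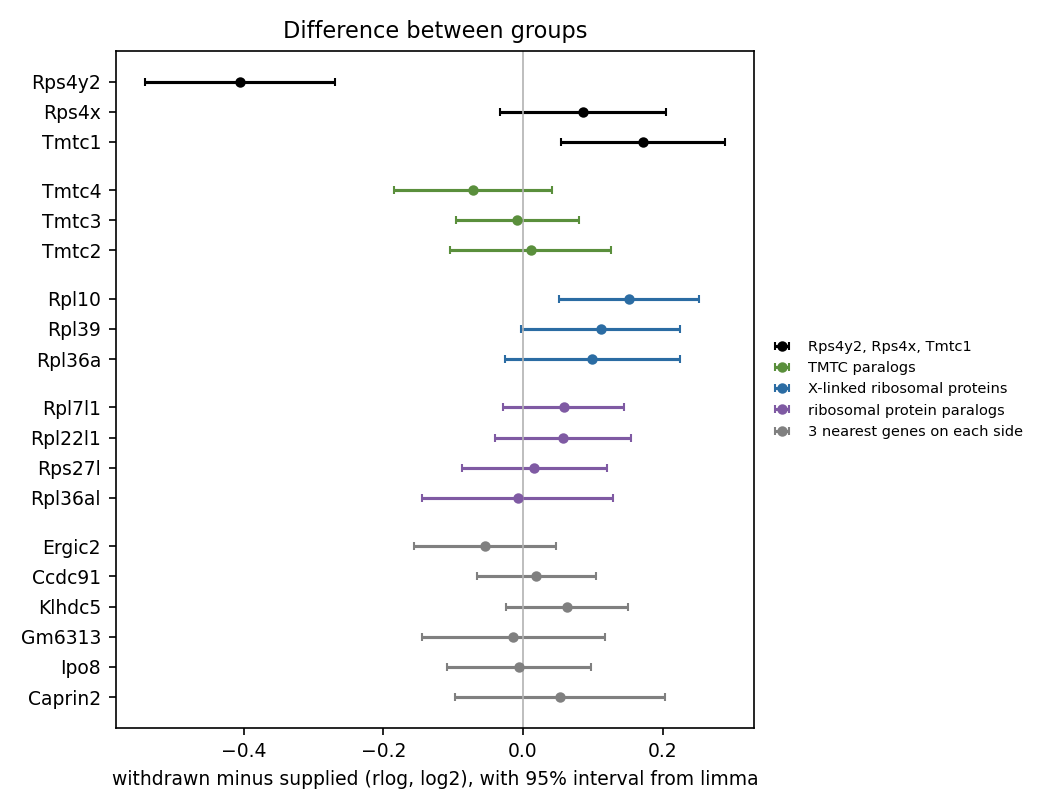
Withdrawn minus supplied (rlog, log2, x axis) with the 95% interval from limma over 5 and 5 embryos, for Rps4y2, Rps4x and Tmtc1, the other TMTC genes, X-linked ribosomal protein genes, ribosomal protein paralogs and the 3 nearest tested genes on each side of Rps4y2. Rps4y2, at -0.41, lies apart to the left, as the value that chose it, and Tmtc1 at 0.17 and Rpl10 at 0.15 lie highest.

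Taken over both groups, Rps4y2 also varied more between embryos of a group than most genes of its level, the wide spread being in supplied embryos. Its residual SD was 0.121, above that of 88.2% of the 1000 genes nearest to it in mean, whose median was 0.0814. Rps4x (0.0932) and Tmtc1 (0.0937) exceeded 66.5% and 66.7% of theirs. In Rps4y2 the SD was 0.160 in supplied and 0.0588 in withdrawn embryos, a difference in spread that was not tested.

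Markers of the labelled cell type were present in all libraries, which does not measure how pure the sorted cells were. All 20 gonadal somatic markers had a row, with Wt1 between 12.88 and 13.09, Nr5a1 between 11.18 and 11.52 and Foxl2 between 9.27 and 9.75. Of the 20, 9 were above 0 and 11 below, with 0 called by limma. At an unadjusted p under 0.05, 3 were higher (Dcn at 0.24, Irx5 at 0.15 and Pdgfra at 0.15) and 0 lower. Of 9 perivascular and smooth muscle markers, 5 were above 0 and 4 below, with 2 higher and 1 lower at that limit and 0 called. Of 15 germ cell markers, 6 had a row, and Pou5f1, Ddx4 and Dazl had none under these symbols. Of the 6, 2 were above 0 (Tfap2c at 0.067 and Nanos3 at 0.028) and 4 below, with 0 called by limma. At an unadjusted p under 0.05, 2 were lower. These were the meiotic cohesin gene Rec8 at -0.48 (limma adjusted p = 0.0654), a larger difference than that of Rps4y2, and Tdrd1 at -0.20 (0.167). Markers of blood and vessel cells were present, with the globin gene Hbb-y between 14.00 and 15.39 and Cdh5 between 10.62 and 10.94. In 10 of 12 endothelial and 7 of 8 neural markers the difference was below 0, against 49.8% of all genes, with 0 members called by limma (1 of each at an unadjusted p under 0.05, on the lower side). Single neural markers differed by more than Rps4y2, with Chgb at -2.10 (limma adjusted p = 0.900) and Nefm at -0.48 (0.956). Both were spread widely among supplied embryos, with an SD of 2.48 in Chgb and 0.850 in Nefm. In withdrawn embryos the SD was 0.120 and 0.154. The endothelial gene Eng stood at -0.39 (limma adjusted p = 0.210). Of 10 macrophage markers, 4 were above 0 and 6 below. Lyz2 (-0.30) and Itgam (-0.22) were the 2 of the 10 at an unadjusted p under 0.05, where limma called 0. Mrc1 (0.10) and Cx3cr1 (0.064) were among the 4 above 0. The summed level of the endothelial markers was 13.17 to 13.40 in supplied and 13.10 to 13.23 in withdrawn embryos, that of the germ cell markers 10.93 to 11.12 and 10.66 to 10.97, that of the macrophage markers 11.37 to 11.56 and 11.38 to 11.68, and that of the neural markers 11.23 to 13.28 and 11.21 to 11.44 (log2 of the sum). Their part in the Rps4y2 value was not tested, and in bulk RNA fewer cells of a type and less RNA per cell cannot be told apart.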

How the data were processed

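RNA was sequenced from 10 samples, 2 ng of total RNA each, per the labels' protocols. The authors deposited a single table of regularised log2 (rlog) values per gene, a transform that pulls weakly expressed genes towards their mean. The submitters' processing notes name Trim Galore 0.4.0, TopHat2 2.1.1, DESeq2 1.20.1 and build mm9. The counting tool and its use of strand are not named there. Because rlog values carry no read totals, depth is unknown and neither counting intervals nor count models could be used. The table held 13578 genes between 4.04 and 21.22, with sample medians from 9.12 to 9.14. No values were equal between samples (0%).

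The 3 genes, the lists and the tests were chosen with earlier results of these data known. Genes with a mean of at least 3 were tested (0 removed) with limma 3.58.1 in R 4.3.3, withdrawn against supplied, over all 10 samples, with a variance trend and Benjamini-Hochberg adjustment at 0.05. The test was checked on simulated data. Correlations among the 3 genes used deviations from group means, with two-sided exact permutation within groups over 14400 orders. Likeness was Pearson's r of the same deviations. Named genes were the 3 genes, for each the 6 most and 3 least like genes, the 3 of smallest p in each list described, all tested TMTC, X-linked and paralog genes, and the 3 nearest genes on each side; Ccdc36 and the cell markers were added after their values were seen.

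Sequences came from GENCODE M21 transcripts by name and were aligned globally with Biopython 1.88 (match 2, mismatch -3, gap opening -8, extension -2). Symbols were matched to RefSeq positions on GRCm38 for 13496 genes. Other settings were another mean minimum (5, or none), no variance trend, robust variance, median centring, quantile normalization, array weights, averaging of embryos that share a title number, a block for the replicate number, Spearman's rho, correlation without subtraction of group means (100000 resamples), and leaving out each embryo in turn. Leaving withdrawn embryo 1 out of the ribosomal protein lists was added after seeing the data.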

Additional observations from a re-analysis of the deposited data

Results flagged for a closer look

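Among the 57 named genes, 8 of 114 groups of 5 embryos held an embryo whose gap to the nearest other exceeded 0.710 of the range of the group, where chance gives about 1 in 20. None of them was in Rps4y2, Rps4x or Tmtc1. Withdrawn embryo 1, the highest in Rps4x, stood apart at the high end in Rps28 (12.07, next 11.89) and Rps29 (11.92, next 11.75). It did so too in Rpl22l1 (8.16) and Pafah1b3 (9.80, next 9.59). Pafah1b3 was named for following Rps4x across these embryos, and Rps28 and Rps29 for their small p in a list. The flags in these genes are therefore not independent of how the genes were chosen. Supplied embryo 5 was low in Rraga (9.94, next 10.10) and withdrawn embryo 4 high in Miip (8.84, next 8.75); both genes were named for following or opposing Rps4y2 across these embryos, so this restates how they were chosen. Withdrawn embryo 5 was high in Atp2a3 (7.81, next 7.60) and withdrawn embryo 3 in Caprin2 (9.63, next 9.34).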

How the results depend on the processing

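The Rps4y2 difference stayed between -0.47 and -0.36 over 19 other settings. Its limma adjusted p was under 0.05 in 6 of them (range 0.00145 to 0.183). Of the embryos left out in turn, supplied embryo 5 was the one whose loss kept that p under 0.05. These p-values describe the contrast that chose the gene and are no test of it. Rps4x (0.047 to 0.12) and Tmtc1 (0.14 to 0.21) kept their sign and missed the threshold in all 19. The number of genes called was 3, and 1 with no variance trend, quantile normalization or averaging of embryos that share a title number, 5 with robust variance or array weights, and 0 to 4 when embryos were left out in turn (0 without supplied embryo 1 or withdrawn embryo 5, 1 without withdrawn embryos 2 or 4). With the replicate block it was 2, and the Rps4y2 difference of -0.41 then had a limma adjusted p of 0.121. Deviations of embryos with the same replicate number correlated between -0.36 and 0.17, 1 of 5 pairs over 0.1. Of 5 supplied embryos, 1 correlated best with its own number. These values give no sign of a pairing by number, but with 5 pairs they cannot decide whether there was one.

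The r of Rps4y2 with Rps4x, 0.67, was 0.45 with quantile normalization, 0.66 with embryos averaged, 0.66 without the farthest embryos, and 0.61 to 0.81 when embryos were left out in turn. Without subtraction of group means it was -0.13 (permutation p = 0.733), since the group difference of Rps4y2 then enters. The r of Rps4y2 with Tmtc1 was then -0.70 (permutation p = 0.0274, adjusted 0.0823), with the group differences of both genes entering. The r of Rps4x with Tmtc1 was -0.76 with embryos averaged (exact permutation adjusted p = 0.0417), the one setting of 15 past the threshold; the cause was not tested. The differences within embryos moved by less than their SD in all 12 settings each. Of the 6 genes most like each gene, Spearman's rho kept 2 (Rps4y2), 3 (Rps4x) and 2 (Tmtc1), and quantile normalization 4, 3 and 4. An alternative added after seeing the data, leaving out withdrawn embryo 1, turned the median of the small subunit list from 0.039 to -0.0095 and that of the large subunit list from 0.043 to -0.0041. Depth, being unknown, sets no limit that can be stated.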
